A study of Mus musculus with 12 samples.

Results

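The 8 genes described here, Sycp1, Sycp3, Stag3, Hormad1, Hormad2, Smc1b, Rec8 and Taf7l, were taken by symbol as meiotic chromosome axis genes. All 8 of 8 were found among the 56691 mouse gene IDs of the count tables, and all 8 had counts in every one of the 12 libraries. They were followed through 4 groups, each with 3 libraries, of R1, an embryonic stem cell line from male mouse embryos of 129 background. The first group, called primed in the labels, was untreated and was taken at day 0 from gelatin-coated plates in medium with serum and LIF. The second was taken after 6 days of 2i alone. The others were taken after 6 days of 2i together with 25 µM or 50 µM of an inhibitor of MRE11, a nuclease that acts at DNA breaks and replication forks. The inhibitor is not named in the labels and no solvent control is described, so that the effects of inhibitor and solvent cannot be told apart. 2i is a pair of inhibitors of the kinases MEK and GSK3. All groups come from this 1 line, and no group was kept without 2i to day 6, so that the effect of 2i and that of time cannot be told apart. Whether the 3 libraries of a group represent 3 cultures is not stated, and if they do not, the p-values reflect only technical spread. The counts are from the 3′ ends of polyadenylated RNA.

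During meiosis each pair of sister chromatids is held together by cohesin, a ring of an SMC1 subunit, an SMC3 subunit, a kleisin and a STAG subunit, and is folded into loops along a protein axis. Germ cells replace general cohesin subunits with their own versions: SMC1B in place of SMC1A, the kleisin REC8 in place of RAD21, and STAG3 in place of STAG1 and STAG2. SYCP3 builds the axis, the HORMA-domain proteins HORMAD1 and HORMAD2 sit on axes that have not yet paired, and SYCP1 spans the gap between paired axes as the transverse filament of the synaptonemal complex. Taf7l stands apart in function: it encodes a germ cell form of TAF7, a subunit of the general transcription factor TFIID, and is no part of the axis. In mouse embryonic stem cells such genes are held low by promoter methylation and by a Polycomb complex that contains MGA, MAX, PCGF6 and E2F6.

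Library totals ranged from 5894561 to 7060126 counts. In every group replicate 1 stood apart from the other libraries. Over all genes its counts differed from theirs with a chi-square per degree of freedom of 8.82 to 11.7, against 2.48 to 6.64 between replicates 2 and 3, and a single gene ID without a symbol took 2.32% to 2.71% of its counts, against 0.663% to 1.23%. The members' results with replicate 1 of every group left out are given where a call changed. Markers of embryonic stem cells were present throughout, with 12 of 12 listed genes counted in every group and a summed level of 4540 to 6050 CPM (normalised read counts, scaled to library size with TMM factors). Pou5f1 was low among them, with group means of 6.53 to 8.41 CPM, against 544 to 598 CPM for Sox2. The reason for its low level was not tested. Markers of spermatocytes and spermatids were near 0: 1 of 12, Ldhc, passed the low-count filter, the summed level was 5.46 to 15.6 CPM, and the protamines Prm1 and Prm2 had no counts in primed, 2i and 50 µM cells. A gene without counts in a group may still lie at up to 0.152 to 0.159 CPM there, by a floor of 3 counts over the group that covers counting error only.

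The members do not share 1 promoter pattern. The 250 bases before each start were taken from RefSeq (GRCm38.p6), and all 8 members matched. A search on both strands for CACGTG, the E-box letters read by MAX and MGA, found it in 5 of 8 members, against 6.05% of 27025 gene promoters of the same length. TCCCGC, letters read by E2F factors, was found on either strand in 4 of 8, against 16.9%. Either motif was found in 7 of 8 members against 21.5%, and the matches to the motifs did not overlap. Both motifs were present in Sycp3 and Hormad1, CACGTG alone in Sycp1, Stag3 and Taf7l, TCCCGC alone in Smc1b and Rec8, and neither in Hormad2. The members held 10 to 26 CpG dinucleotides in these windows, against a median of 6 over all promoters. Each motif itself contains a CpG, and the background promoters were not matched for CpG count. The shares with a motif are therefore not a like-for-like comparison. A match is a description of the letters and not a site. The promoters of Sycp1 (chr3:102936101-102936350, minus strand), which was lower in 2i than in primed cells, and of Hormad1 (chr3:95559427-95559676, plus strand), which was higher, are shown whole because both carry the E-box. Motif letters are in capitals, and sequences read 5′ to 3′ on the strand of the gene.
Sycp1: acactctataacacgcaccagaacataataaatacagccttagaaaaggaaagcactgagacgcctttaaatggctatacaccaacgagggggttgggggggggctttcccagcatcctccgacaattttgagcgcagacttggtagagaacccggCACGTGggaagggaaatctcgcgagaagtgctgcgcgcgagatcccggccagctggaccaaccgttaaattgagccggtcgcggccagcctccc
Hormad1: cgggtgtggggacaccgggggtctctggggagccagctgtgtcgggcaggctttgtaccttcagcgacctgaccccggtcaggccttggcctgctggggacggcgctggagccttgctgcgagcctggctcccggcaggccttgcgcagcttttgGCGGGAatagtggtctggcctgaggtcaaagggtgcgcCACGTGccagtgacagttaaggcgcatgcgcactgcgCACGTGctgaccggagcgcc

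For the other members with a match, 30 bases around it are shown, so that the flanks can be compared between genes that fell with the inhibitor (Smc1b, Sycp3, Stag3) and genes not called in that comparison (Rec8, Taf7l). The windows lie at chr15:85131987-85132016 (minus strand), chr10:88459511-88459540 (plus), chr5:138280327-138280356 (plus), chr14:55618116-55618145 (plus) and chrX:134476522-134476551 (minus). The motifs begin 47, 64, 170, 38 and 49 bases before the RefSeq start, in that order. For Stag3 and Rec8 the GENCODE gene begins upstream of that start, so these windows lie inside the annotated gene: 250 of the 250 bases searched for Stag3 and 129 of those for Rec8 are in annotated exons. For Smc1b it is 137 bases, in exons of Smc1b and its neighbour Ribc2, and for Hormad2 and Sycp3 23 and 18. Sycp3 has 3 matches, and the CACGTG 64 bases before the start is shown, while another CACGTG at 43 and a TCCCGC at 147 are not.
Smc1b: aaaagaatttctTCCCGCgctttttttttt
Sycp3: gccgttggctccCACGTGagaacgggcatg
Stag3: cgcgctggagccCACGTGacaggactgcac
Rec8: gtgtgcacctgaTCCCGCtggagggcgaca
Taf7l: accctcttatacCACGTGacagaactcgcc

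After 6 days of 2i the members split in direction. Of the 8 genes, 2 rose (Rec8 and Hormad1), 5 fell (Smc1b, Sycp3, Sycp1, Stag3 and Taf7l) and 1, Hormad2, was not called, by edgeR at an adjusted p below 0.05 over the 13230 genes tested. Over all genes 20% rose and 20.4% fell, 40.4% in all. The median log2 fold change of the members was −0.46, and that of all genes tested was −0.01. In every member the 3 libraries of 2i lay on 1 side of the 3 primed libraries: 2 members lay above, as did 24.6% of all genes, and 6 below, as did 25.8%. In bulk RNA, fewer cells that express a gene and less RNA per cell cannot be told apart.

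**Figure D1:**
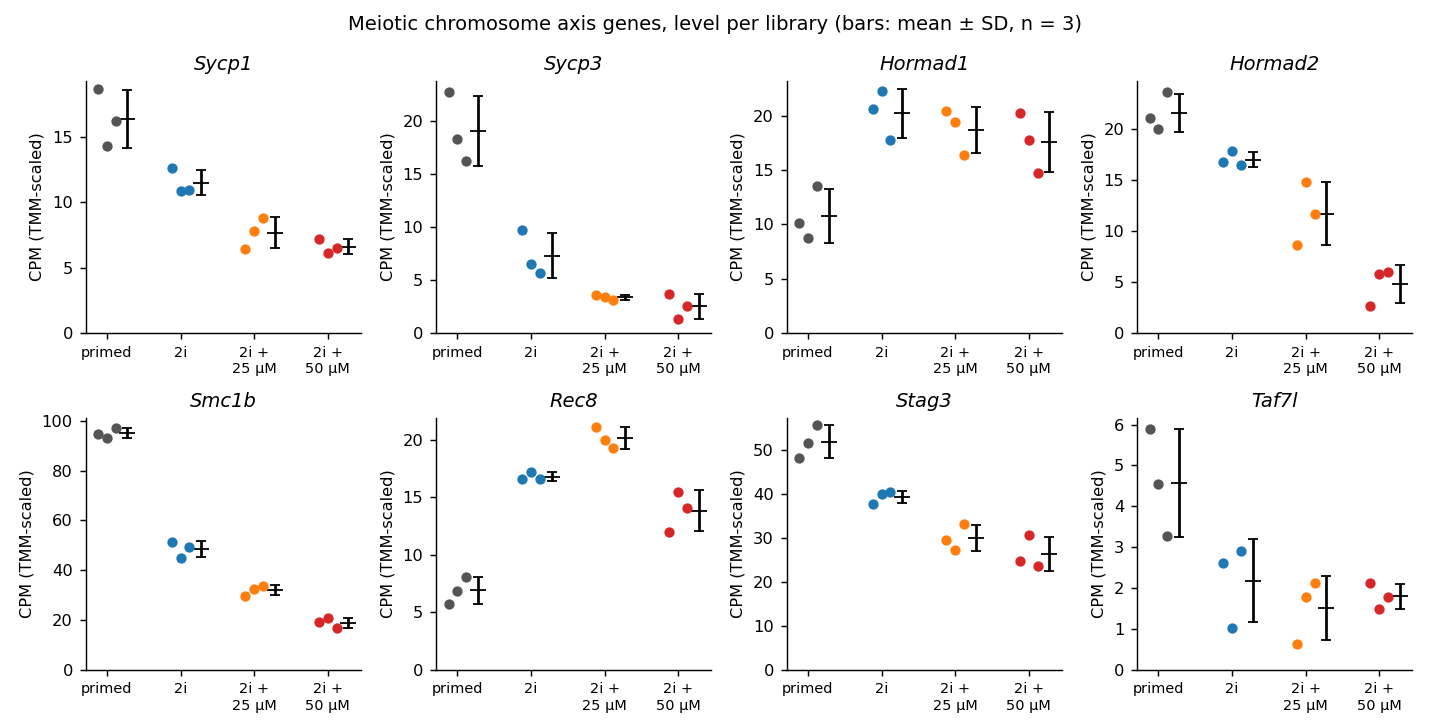
Level of each member in every library (vertical axis, CPM scaled by TMM, starting at 0) in primed cells, 2i, and 2i with 25 or 50 µM inhibitor; points are libraries and bars are mean ± SD of 3. Smc1b steps down from 95.1 to 18.8 CPM over the 4 groups, while Rec8 and Hormad1 are lowest in primed cells.

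Among the cohesin subunits, Smc1b showed the clearest fall. Smc1b (ENSMUSG00000022432, GRCm38 chromosome 15, 85064689 to 85131964) had 94.6, 93.3 and 97.2 CPM in the primed libraries and 51.3, 44.9 and 49.2 CPM in 2i. All libraries of 2i were low, and the spread within each group was small beside the gap. The mean went from 95.1 ± 1.99 to 48.5 ± 3.24 CPM (SD, n = 3), a log2 change of −0.97 ± 0.10 (SE; edgeR adjusted p = 5.91e-08).

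Rec8, the meiotic kleisin (ENSMUSG00000002324, chromosome 14, 55618037 to 55625395), went the other way. It had 5.75, 6.89 and 8.10 CPM in primed cells and 16.6, 17.2 and 16.6 CPM in 2i. The groups were far apart, and the 2i libraries were close together. The log2 change was 1.28 ± 0.17 (edgeR adjusted p = 1.81e-06). Stag3 (ENSMUSG00000036928, chromosome 5, 138280240 to 138312393), the STAG subunit of meiotic cohesin, had 48.2, 51.6 and 55.6 CPM in primed cells and 37.8, 39.9 and 40.3 CPM in 2i. It fell by 0.40 ± 0.12 on the log2 scale (edgeR adjusted p = 0.00825), a smaller change than that of Smc1b with no overlap between the groups.

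The HORMA-domain pair parted in 2i. Hormad1 (ENSMUSG00000028109, chromosome 3, 95559677 to 95587671), which keeps unpaired axes competent for breaks, had 10.1, 8.74 and 13.6 CPM in primed cells. In 2i it had 20.6, 22.2 and 17.7 CPM, all above the highest primed library, and rose by 0.90 ± 0.17 (edgeR adjusted p = 0.000238). Hormad2 (ENSMUSG00000020419, chromosome 11, 4345814 to 4441105), which acts in the surveillance of unpaired axes, had 21.1, 20.0 and 23.7 CPM in primed cells and 16.7, 17.8 and 16.5 CPM in 2i. The 2i libraries were the lower ones, but the difference of −0.35 ± 0.19 did not pass the test (edgeR adjusted p = 0.152).

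Of the synaptonemal complex proteins, Sycp3 (ENSMUSG00000020059, chromosome 10, 88459569 to 88473236) had 22.7, 18.3 and 16.2 CPM in primed cells and 9.67, 6.48 and 5.65 CPM in 2i. It fell by 1.39 ± 0.23 (edgeR adjusted p = 3.4e-05). The exons of Sycp3 overlap those of Chpt1, a choline phosphotransferase gene on the opposite strand, by 660 bases that reach the 3′ end of Sycp3. The strand setting of the counting is not known from these sources, and without strand the reads of the pair cannot be told apart, so the level of Sycp3 is uncertain. The mean level of Chpt1 itself was 9.77 CPM in the primed group and 23.1 CPM in the 2i group, with 23.4 and 22.1 CPM at the lower and the higher dose. Sycp1 (ENSMUSG00000027855, chromosome 3, 102818499 to 102936100), whose gene also has an annotated pseudogene copy, had 18.7, 14.3 and 16.2 CPM in primed cells and 12.6, 10.9 and 10.97 CPM in 2i. It fell by 0.51 ± 0.17 (edgeR adjusted p = 0.0164). Leaving out primed replicate 1 gave an adjusted p of 0.0877, leaving out 2i replicate 2 gave 0.0643, and leaving out 2i replicate 3 gave 0.0594.

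Taf7l (ENSMUSG00000009596, chromosome X, 134460118 to 134476490) rested on few counts, 86 over the primed libraries and 42 over those of 2i. It had 5.91, 4.54 and 3.27 CPM in primed cells and 2.61, 1.03 and 2.90 CPM in 2i. Its fall of 1.07 ± 0.38 (edgeR adjusted p = 0.0288) lost the call without primed replicate 1 (0.128), primed replicate 2 (0.0581) or 2i replicate 2 (0.155). With replicate 1 of every group left out, a setting chosen after seeing the data, neither Sycp1 (0.0567) nor Taf7l (0.0697) was called, and 3 members fell and 2 rose.

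**Figure D2:**
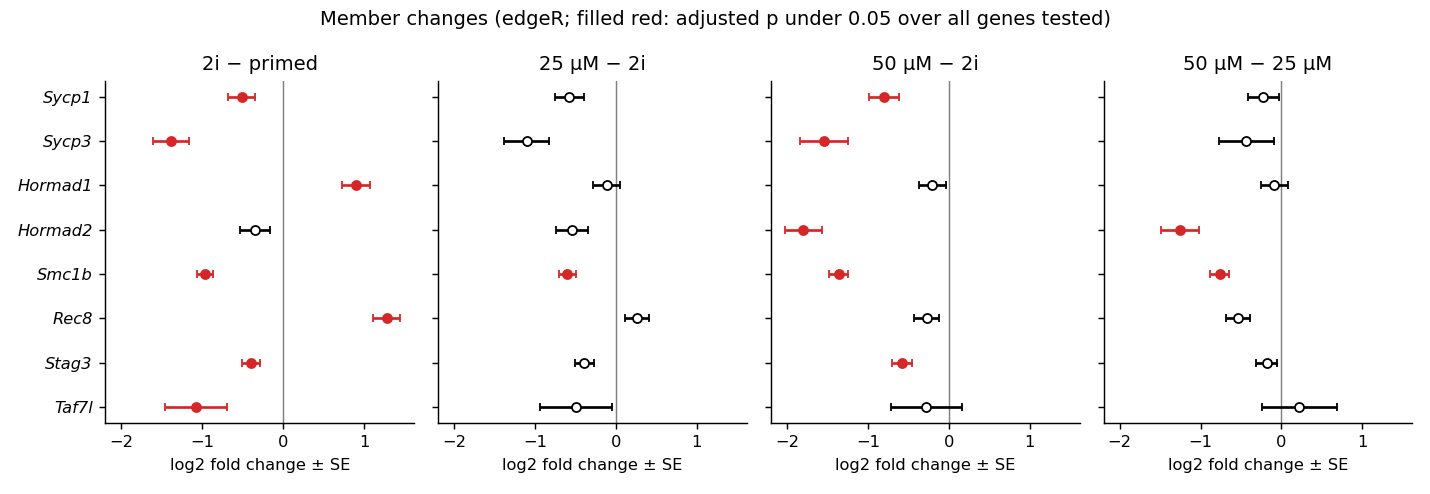
Log2 fold change ± SE of each member (horizontal axis) in 4 comparisons, with the higher-dose or later group first; filled red points have an edgeR adjusted p under 0.05 over all genes tested. In 2i, 2 members rose and 5 fell, and at 50 µM against 2i 5 fell.

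With 25 µM inhibitor, Smc1b fell further. It had 29.8, 32.5 and 33.5 CPM, all below the 3 libraries of 2i alone, a change of −0.60 ± 0.11 on the log2 scale (edgeR adjusted p = 0.00671). It was the 1 member of 8 called against 2i, while 0.937% of all genes were called and 0.484% fell. No member rose by edgeR, at an unadjusted p under 0.05, by DESeq2 or by limma voom, and 5 were lower at an unadjusted p under 0.05. The members' median was −0.52, against 0.00 over all genes tested. In 5 members every 25 µM library lay below every 2i library, as in 9.25% of all genes, and in 1, Rec8, every library lay above, as in 10.2%.

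Fitting the replicate number as a block raised the calls at 25 µM to 3 members, all lower, and to 627 genes over the whole table from 124. These 627 are 4.74% of all genes: 2.26% fell and 2.48% rose. The members added were Sycp3 (3.61, 3.42 and 3.12 CPM at 25 µM; −1.10 ± 0.28, edgeR adjusted p = 0.0602, and 0.00457 with the block) and Stag3 (29.5, 27.2 and 33.1 CPM; −0.39 ± 0.12, 0.143, and 0.0317 with the block). Sycp1 (6.43, 7.81 and 8.80 CPM; −0.58 ± 0.18, edgeR adjusted p = 0.151) and Hormad2 (8.63, 14.8 and 11.6 CPM; −0.54 ± 0.20, 0.236) were not called in either fit, although no library of theirs reached the level of 2i alone. Rec8 had its highest level here, with 21.2, 20.0 and 19.3 CPM, but the difference from 2i of 0.26 ± 0.14 was not called (edgeR adjusted p = 0.452). Hormad1 (20.4, 19.4 and 16.3 CPM; −0.12 ± 0.16) and Taf7l (0.627, 1.79 and 2.13 CPM; −0.50 ± 0.45) overlapped with 2i alone.

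At 50 µM the fall took in 5 of 8 members, while 8.07% of all genes fell, 7.01% rose and 15.1% were called in all. With the replicate block 3240 genes were called in place of 1994, which is 24.5% of all genes, with 5 members lower as before. Smc1b, Hormad2, Sycp3, Sycp1 and Stag3 fell. Hormad1, Rec8 and Taf7l were not called. No member rose by edgeR, at an unadjusted p under 0.05, by DESeq2 or by limma voom. The median of the members was −0.69, against 0.01 over all genes tested, and 6 members lay wholly below 2i alone, as did 16.4% of all genes, while none lay wholly above, as did 16.1%.

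The largest change among the members at 50 µM was that of Hormad2, the member that had not passed the test in 2i. It had 2.64, 5.82 and 5.99 CPM at 50 µM, from 16.7, 17.8 and 16.5 CPM in 2i alone. All 3 libraries were low, and replicate 1 was the lowest. The mean was 4.82 ± 1.88 CPM, and the log2 change was −1.80 ± 0.23 (edgeR adjusted p = 2.17e-05). Smc1b had 19.0, 20.7 and 16.7 CPM and changed by −1.36 ± 0.11 (edgeR adjusted p = 6.02e-08), which is 2.57-fold lower than in 2i.

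Both synaptonemal complex genes were lower at 50 µM than in 2i. Sycp3 had 3.70, 1.34 and 2.59 CPM, from 46 counts in all, and changed by −1.54 ± 0.30 (edgeR adjusted p = 0.0013). Sycp1 had 7.23, 6.12 and 6.48 CPM and changed by −0.80 ± 0.19 (edgeR adjusted p = 0.00563). Stag3, with 24.7, 30.7 and 23.5 CPM, changed by −0.58 ± 0.12 (edgeR adjusted p = 0.00271), and its replicate 2 was the high one.

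The pair that had risen in 2i did not fall past the threshold. Hormad1 had 20.3, 17.8 and 14.7 CPM at 50 µM, and its range overlapped with that of 2i (−0.20 ± 0.16, edgeR adjusted p = 0.439). Rec8 had 11.98, 15.5 and 14.1 CPM, all below the 2i libraries, with a difference of −0.27 ± 0.15 (edgeR adjusted p = 0.234). Taf7l had 2.12, 1.49 and 1.78 CPM, within the range of 2i (−0.28 ± 0.44, edgeR adjusted p = 0.72).

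**Figure D3:**
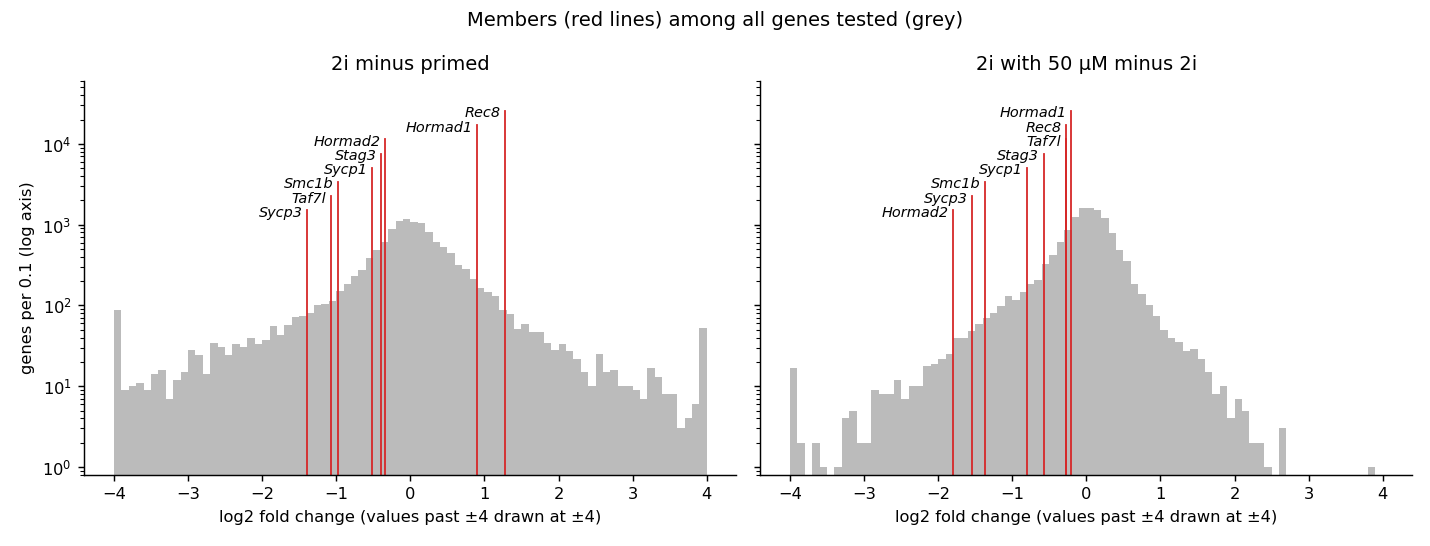
Log2 fold changes of all 13230 genes tested (grey, number of genes per 0.1 on a log axis, values past ±4 drawn at the ends) with the 8 members as red lines, for 2i minus primed (left) and 2i with 50 µM minus 2i (right). In 2i Rec8 and Hormad1 lie to the right of 0 and the other members to the left, and at 50 µM all 8 lie left of 0, from −1.80 for Hormad2 to −0.20 for Hormad1, with 5 of them called.

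The doses differed from each other for 2 members, Smc1b and Hormad2, both lower at 50 µM. Over all genes 0.975% fell between the doses, 0.181% rose and 1.16% were called. Smc1b went from 32.0 ± 1.92 to 18.8 ± 2.04 CPM (SD, n = 3), a log2 difference of −0.76 ± 0.12 (edgeR adjusted p = 0.000999). Hormad2 went from 11.7 ± 3.09 to 4.82 ± 1.88 CPM, a difference of −1.26 ± 0.24 (edgeR adjusted p = 0.00866, and 0.0811 without 25 µM replicate 2). Rec8 was lower at 50 than at 25 µM in all libraries, by 0.54 ± 0.15 on the log2 scale, which was not called (edgeR adjusted p = 0.0877) except with the replicate block (0.0258). That fit called 542 genes in place of 153, or 4.1% of all genes, with 2.83% lower and 1.27% higher at 50 µM. The other 5 members were not called between the doses, with log2 differences of −0.43 ± 0.34 for Sycp3, −0.22 ± 0.19 for Sycp1, −0.18 ± 0.12 for Stag3, −0.09 ± 0.17 for Hormad1 and 0.22 ± 0.47 for Taf7l. In 3 members, Hormad2, Smc1b and Rec8, every 50 µM library lay below every 25 µM library, as in 9.21% of all genes, and in none did all lie above, as in 7.48%. No member rose between the doses by edgeR, at an unadjusted p under 0.05, by DESeq2 or by limma voom.

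Set against primed cells, all 8 members were called at both doses, 2 higher and 6 lower. Over all genes 42.3% were called at 25 µM (21.3% higher and 21% lower) and 44.3% at 50 µM (22.6% higher and 21.7% lower). The same 2 members lay wholly above and the same 6 wholly below the primed libraries at both doses, where 25.8% of all genes lay above and 25.5% below at 25 µM, and 26.8% and 25.3% at 50 µM. These comparisons share the primed libraries with each other and with that of 2i, so they are not independent of each other. The levels of Smc1b fell in the order primed, 2i, 25 µM and 50 µM, with each neighbour differing past the threshold. For Hormad2 the order was the same, but primed and 2i, and 2i and 25 µM, did not differ past it. Sycp3, Sycp1 and Stag3 also followed that order, and in each the doses did not differ past the threshold from each other. Rec8 and Hormad1 stayed above primed cells at 50 µM, by 1.01 ± 0.17 (edgeR adjusted p = 5.04e-05) and 0.70 ± 0.18 (edgeR adjusted p = 0.00285). On the log2 scale the differences of 50 µM from primed cells were −2.93 ± 0.27 for Sycp3, −2.33 ± 0.11 for Smc1b and −2.14 ± 0.22 for Hormad2. For Taf7l the difference of 25 µM from primed cells was −1.57 ± 0.40 (edgeR adjusted p = 0.00323), but with replicate 1 of every group left out it was not called (0.0688).

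The general counterparts of the germline subunits are given beside them, and the difference in response between a member and its counterpart was not tested. Smc1a had mean levels of 349, 338, 364 and 400.3 CPM from primed cells to 50 µM, with log2 differences of −0.05 ± 0.14 in 2i and 0.24 ± 0.14 at 50 µM against 2i, neither called (edgeR adjusted p = 0.822 and 0.259). With the replicate block Smc1a was called higher at 50 µM (0.00643). Rad21, the general kleisin, changed by 0.26 ± 0.11 in 2i (edgeR adjusted p = 0.0576) and by −0.13 ± 0.11 at 50 µM, also not called. With the replicate block Rad21 was called higher in 2i (0.00275). Stag1 rose by 0.29 ± 0.10 in 2i and Stag2 fell by 0.36 ± 0.12 (edgeR adjusted p = 0.0229 and 0.021), but 4 and 2 of the 6 fits that leave out 1 library lost these calls, with adjusted p up to 0.0938 and 0.0794. At 50 µM against 2i Stag1 (0.20 ± 0.10) and Stag2 (0.32 ± 0.12, edgeR adjusted p = 0.0867) were not called, except Stag2 with the replicate block (0.0159). Against primed cells Stag1 was higher at 50 µM, with means of 69.8 CPM in primed cells and 98.4 CPM at 50 µM. That call (edgeR adjusted p = 0.000329) held with 1 library left out, at up to 0.00418. Without the block Smc1a, Rad21 and Stag2 were not called there (edgeR adjusted p = 0.267, 0.351 and 0.782). Taf7, the general form of Taf7l, was not called either (0.40 ± 0.16 in 2i, edgeR adjusted p = 0.0548, and −0.10 ± 0.16 at 50 µM), but with the replicate block it was called higher in 2i (1.55e-05). Of 13 mitotic cohesin genes, all tested, 1 rose and 1 fell in 2i, and at 50 µM 1 rose, Cdca5, which protects cohesion (0.54 ± 0.13, edgeR adjusted p = 0.00891). At 25 µM against 2i none was called by edgeR, DESeq2 or limma voom, an unadjusted p under 0.05 took in 1 gene in each direction, and so did the block. With the replicate block 3 of them rose and 1 fell at 50 µM, and Cdca5 lost its call without 2i replicate 3 or 50 µM replicate 1, with an adjusted p of up to 0.058. Of 14 TFIID genes tested 1 rose and 4 fell in 2i, and 3 rose at 50 µM (Taf9b, Taf6 and Taf4), or 5 with the block and at most 1 with a library left out. Over all genes 40.4% were called in 2i and 15.1% at 50 µM against 2i.

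**Figure D4:**
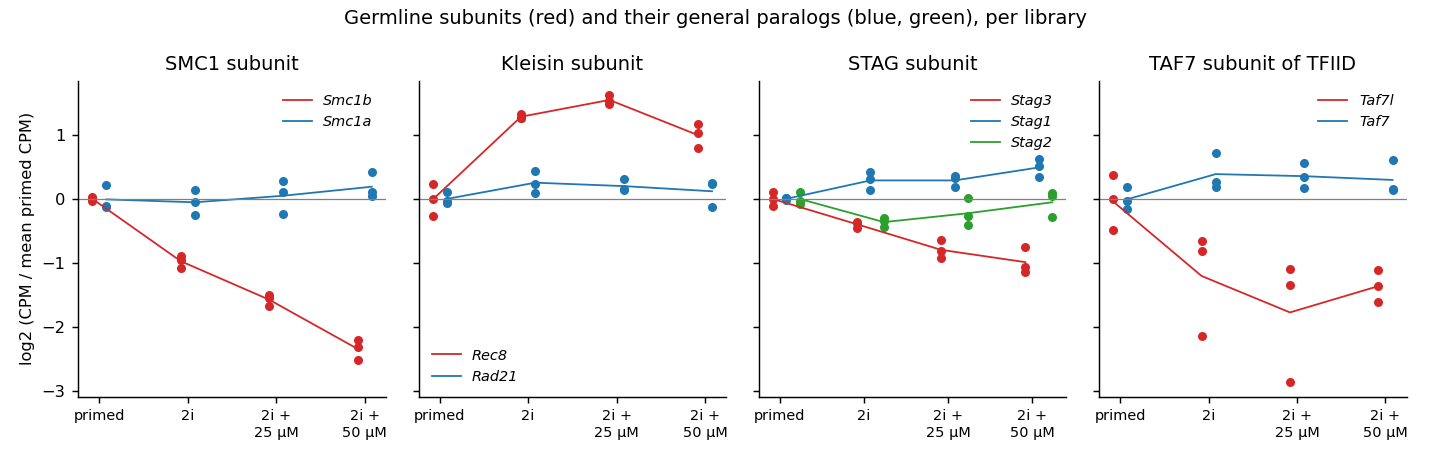
Log2 ratio of each library's CPM to the gene's mean in primed cells (vertical axis) for germline subunits (red) and their general paralogs (blue and green); points are libraries and lines join the means of the 3 log2 ratios. Smc1b, Stag3 and Taf7l lie below their primed means in all later groups and Rec8 lies above, while Smc1a, Rad21 and Taf7 stay within 1 log2 unit of theirs.

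Other genes of the axis and synaptonemal complex also split in 2i, where 40.4% of all genes were called; at 25 and 50 µM against 2i it was 0.937% and 15.1%. Of 18 listed genes in the files 12 were tested, and 3 rose, 6 fell and 3 were not called, with a median of −0.43. 4930447C04Rik, a gene of the complex's central element, fell by 1.52 ± 0.11, Syce3 by 2.13 ± 0.34 and Syce2 by 0.65 ± 0.09, while Fkbp6 rose by 1.17 ± 0.16. Sycp2, the axis partner of SYCP3, had 52 counts over the primed libraries and 19 over those of 2i, and fell by 1.49 ± 0.48 (edgeR adjusted p = 0.0168, and up to 0.0927 with 1 library left out). Rad21l, the other meiotic kleisin, had no counts in any group. The list also holds genes with roles in dividing cells, such as Skp1a, Sgo2a and Trip13.

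At 25 µM against 2i Fkbp6 alone of these 12 was called, lower by edgeR (adjusted p = 0.0164, and up to 0.105 with 1 library left out), and the replicate block called 1 higher and 2 lower. At 50 µM against 2i, 1 of these 12 genes rose, 1 fell and 10 were not called, with a median of −0.25. Fkbp6 fell by 1.18 ± 0.16, from 34.3 to 15.1 CPM. With the replicate block 2 fell. Syce2 rose by 0.34 ± 0.09 (edgeR adjusted p = 0.0178), a call lost in 4 of 6 fits that leave out 1 library, with an adjusted p of up to 0.182. Sycp2, at 0.985 CPM in 2i and 0.492 at 50 µM, was not called.

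Of 23 genes of meiotic recombination in the files 12 were tested. In 2i 3 rose and 2 fell, a share near the 40.4% of all genes: the pairing factor Mnd1 fell by 0.77 ± 0.11 and Zcwpw1, a histone reader of recombination sites, by 1.38 ± 0.17, while Tex15 rose by 0.71 ± 0.15. The other rises, of Mcmdc2 and Prdm9, lost their calls in 2 and 3 of the 6 fits that leave out 1 library, with adjusted p up to 0.09 and 0.129. Spo11, the enzyme that makes meiotic breaks, had 1 count over the primed libraries and none in the other groups. At 25 µM none was called by edgeR, DESeq2 or limma voom, and at an unadjusted p under 0.05 there was 1 gene in each direction. At 50 µM 1 rose and 2 fell, or 5 and 2 with the replicate block, while 15.1% of all genes were called, or 24.5% with the block. Dmc1, the meiotic strand exchange protein, rose by 0.71 ± 0.20 (edgeR adjusted p = 0.0173, and up to 0.095 with 1 library left out). 4930432K21Rik fell by 1.12 ± 0.27, and Mcmdc2 fell by 1.38 ± 0.35 (edgeR adjusted p = 0.0109, which became 0.0636 when 2i replicate 2 was left out).

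Some genes of meiotic entry fell at 50 µM against 2i, where 8.07% of all genes fell and 15.1% were called. There 4 of 9 tested fell and 5 were not called, with a median of −0.70. None rose by edgeR, at an unadjusted p under 0.05, by DESeq2 or by limma voom. Dazl, a germ cell RNA-binding protein, had 37.9, 27.7 and 34.7 CPM in primed cells, 227, 288 and 291 in 2i, 84.2, 141 and 155 at 25 µM and 62.7, 120 and 90.7 at 50 µM. It rose in 2i by 3.00 ± 0.29 and fell at 50 µM against 2i by 1.56 ± 0.27 (edgeR adjusted p = 0.00427). Sohlh2 changed by −1.04 ± 0.16, Dmrt1 by −1.31 ± 0.26 and the retinoid receptor Rxra by −0.72 ± 0.19 at 50 µM. Stra8, a retinoic acid target that acts at the start of meiosis, had means of 5.45, 4.26, 3.56 and 2.60 CPM from primed to 50 µM. It was not called in 2i against primed cells or at 50 µM against 2i. At 50 µM against primed cells it was lower by edgeR (−1.05 ± 0.36, adjusted p = 0.0227, and up to 0.106 in the 3 of 6 fits with 1 library left out that lost the call). In 2i 3 of these 9 genes rose and 3 fell, while 40.4% of all genes were called. At 25 µM against 2i 1 fell, Sohlh2, or 2 with the replicate block. Over all genes 0.484% fell there, or 2.26% with the block. That call on Sohlh2 (−0.73 ± 0.15, edgeR adjusted p = 0.0242) was lost in 5 of the 6 fits that leave out 1 library, with an adjusted p of up to 0.134.

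Of 19 listed genes of the MGA and PCGF6 complex and of histone repressors, all tested, 3 rose (Wdr5 by 0.91 ± 0.09, Setdb1 by 0.66 ± 0.10 and Rnf2 by 0.37 ± 0.10) and 2 fell in 2i (Ehmt2 by 0.68 ± 0.12 and Ehmt1 by 0.40 ± 0.10). At 25 µM against 2i none was called by edgeR, DESeq2 or limma voom, and 1 was higher at an unadjusted p under 0.05. At 50 µM against 2i Ring1 rose by 0.96 ± 0.23, Yaf2 fell by 0.68 ± 0.20 (edgeR adjusted p = 0.0247, and up to 0.108 with 1 library left out) and 17 were not called. With the replicate block 2 rose and 1 fell. Over all genes 40.4% were called in 2i, and 0.937% and 15.1% at 25 and 50 µM against 2i. Of 12 DNA methylation genes tested 3 rose and 5 fell in 2i. The de novo methyltransferase genes Dnmt3a and Dnmt3b and their cofactor gene Dnmt3l fell by 2.22 ± 0.13, 2.10 ± 0.11 and 2.13 ± 0.12, and Tet2 rose by 0.89 ± 0.12. At 50 µM against 2i 3 rose and 2 fell. Uhrf1, which brings DNMT1 to replicating DNA, rose by 0.61 ± 0.09, Cdca7 by 0.51 ± 0.10 and Dnmt1 by 0.31 ± 0.10 (edgeR adjusted p = 0.0423, and up to 0.197 with 1 library left out). Dppa3 fell by 1.68 ± 0.22 and Dnmt3a by 0.42 ± 0.14 (edgeR adjusted p = 0.0489, and up to 0.178 with 1 library left out).

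Markers of other cell states also changed with the inhibitor, and their part in the members' changes was not tested. Over all genes 15.1% were called at 50 µM against 2i (8.07% lower and 7.01% higher) and 0.937% at 25 µM. With the replicate block it was 24.5% and 4.74%. Of 10 germ cell markers tested 5 fell at 50 µM against 2i and 5 were not called. With the replicate block 1 of the 5 not called, Dnd1, was called higher (0.61 ± 0.22, edgeR adjusted p = 0.0659, and 0.0187 with the block). Of the 5 that fell, Piwil2, Tfap2c and Kit lost their calls in 5, 4 and 3 of the 6 fits that leave out 1 library. The edgeR adjusted p in those fits was up to 0.125, 0.113 and 0.165. DESeq2 and limma voom each called 4 of the 10 lower. At 25 µM edgeR called none, with 3 lower at an unadjusted p under 0.05 and 1 lower by DESeq2 and by limma voom. Of 12 embryonic stem cell markers 3 rose (Utf1, Tdgf1 and Klf4) and 1 fell (Tfcp2l1) at 50 µM. With the block 4 rose and 3 fell. Klf4 and Tfcp2l1 each lost the call in 4 of the 6 fits that leave out 1 library, and Tdgf1 in 1. The 12 germ cell markers in the files summed to 275 to 292 CPM in the primed libraries and 547 to 702 CPM in 2i. At 50 µM the sum was 304 to 411 CPM, and Nanos2 was at 0 counts in all groups. Dazl alone went from a mean of 269 CPM in 2i to 91.1 CPM at 50 µM. Among 17 other genes listed as methylation-sensitive germline genes 9 fell at 50 µM. They included Rhox5 (−1.605 ± 0.129), Tex19.1 (−1.19 ± 0.14), Brdt (−3.17 ± 0.45) and Magea5 (−2.31 ± 0.39). Not all 17 were silent: Zfp42, Tex19.1 and Rhox5 had means of 830, 414 and 338 CPM in primed cells. Among the 9, Piwil2, Slc25a31 and Tuba3a lost their calls in 5, 3 and 2 of the 6 fits that leave out 1 library. At 25 µM 2 of the 17 fell, or 7 with the replicate block. In 2i against primed cells 7 of the 17 rose and 5 fell, while 40.4% of all genes were called. The lists share genes, so their counts are not independent. Ddx4, Piwil2 and Mov10l1 of the 17 are also germ cell markers, and Zfp42 is also a stem cell marker. Dazl and Stra8 are counted both as meiotic entry genes and as germ cell markers. Ldhc, the spermatid marker tested, also fell at 50 µM (edgeR adjusted p = 0.0479), a call that DESeq2 and limma voom did not make. Of 18 markers of the 2-cell-like state 7 were tested and all 7 fell at 50 µM, with a summed level of 20.8 to 23.1 CPM in 2i, 2.98 to 5.37 at 25 µM and 0.447 to 0.881 at 50 µM, where 11 of the 18 had no counts. At 25 µM 4 of the 7 fell, or 7 with the replicate block and 0 to 3 with a library left out. Of 11 fibroblast markers 3 were tested and 2 fell at 50 µM. The 11 summed to 31.3 to 75.7 CPM in primed cells, 12.9 to 18.0 in 2i and 1.94 to 3.08 at 50 µM. No counts were found for 4 of the 11 in primed cells, 4 in 2i and 6 at 50 µM. Dcn and Lum were without counts in primed cells as well as at 50 µM.

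Genes whose log2 CPM tracked a member most closely over the 12 libraries were found for each member, leaving out predicted genes. The correlations are descriptions over libraries that fall into 4 groups. For Smc1b they were Tuba4a (Pearson r = 0.985), Rbp4 (0.981) and Ddit4 (0.98), and for Hormad2 they were Dppa3 (0.979), Susd4 (0.968) and Lst1 (0.957). Rec8 was closest to Ak4 and Cers6 (both 0.977), and Hormad1 to Eci2 (0.965). Sycp3 was closest to Acta2 (0.977), Sycp1 to Patj (0.97), Stag3 to Xpot (0.972) and Taf7l to Itgam (0.924). Next for Sycp1 was Col1a1 (0.967), a listed fibroblast marker. No member was among the 3 closest genes of another.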

How the data were processed

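Each library has 1 deposited table, in which the authors give raw counts per Ensembl gene ID. Libraries were made from total RNA with QuantSeq 3′ mRNA-seq, per the labels' protocols. The submitters' processing notes list FastQC, STAR, DESeq2 1.32.0 and the builds GRCm38 and mm10. The sources used here do not give the counting tool, strand setting or annotation release. Spike-in features (114, with 2 counts over all libraries) were left out. Symbols matched 52073 of 56691 IDs, and positions come from GENCODE (GRCm38).

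Groups were compared with edgeR 4.0.16 in R 4.3.3 by quasi-likelihood F tests (TMM, filterByExpr, robust, 1 fit of 12 libraries, 13230 genes). A call is a Benjamini-Hochberg adjusted p under 0.05 over all genes, and SE is the log2 fold change over the square root of F. The code was tested on simulated data. Alternatives were other scalings, no filter, DESeq2 1.42.0, limma voom 3.58.1, a fit of only the groups compared, the replicate number as a block, and each library left out. Deviations of same-numbered libraries from their group means correlated at 0.155 to 0.314 between 2i and 25 µM, 0.115 to 0.249 between 2i and 50 µM and 0.134 to 0.286 between the doses, so the numbers were taken to pair these groups. The main calls do not use this pairing, which was fitted as a block only among the alternatives. The numbers were not taken to pair groups with primed cells. Those correlations were 0.0908 to 0.244 for 2i, 0.0115 to 0.163 for 25 µM and 0.0511 to 0.175 for 50 µM. The range for 2i against primed cells overlaps the ranges of the groups taken to be paired. Every pair of libraries in a group differed by more than sampling noise, with a chi-square per degree of freedom of 2.48 to 11.7. Named by rule were the members, their general paralogs and up to 4 genes of each list by p. Of the 3 genes most like each member, not all are named. Chpt1, Spo11, Rad21l, Stra8, Nanos2 and further list genes given for their role were chosen after their values were seen. Members and lists were chosen with earlier results of these data known.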

Additional observations from a re-analysis of the deposited data

How the results depend on the processing

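The 5 members that fell at 50 µM against 2i did so in every alternative run (112 of 112 member results on the same side of the threshold). At 25 µM against 2i the members called were 2 with library totals only, without the low-count filter and with DESeq2, and 3 with the replicate block; over all genes the filter left off gave 268 calls and the block 627, and leaving out 1 library gave 29 to 101. At 50 µM against 2i the block called 3240 genes and leaving out 1 library 1217 to 1668. Between the doses no filter gave 329 genes, the block 542, replicate 1 of every group left out 238, and 1 library left out 38 to 203, with 1 to 2 members. At 25 µM the block added Sycp3 and Stag3 and between the doses it added Rec8, for 3 members each, and it changed no other call on a member in these 3 comparisons. Against primed cells, where the numbers were not taken to pair the libraries, the block called 7 members in 2i and 8 at each dose, as without it, and it also called Rad21 (adjusted p = 0.00275) and Taf7 (1.55e-05) higher in 2i. Every reversal was in a difference that was not called: Taf7l at 25 µM against 2i was 0.014 with replicate 1 of every group left out, and between the doses it was −0.28 there and ran from −0.14 to 0.58 with 1 library left out, where Hormad1 ran from −0.21 to 0.011. The cause of these shifts was not tested. Depth limits Taf7l most, at 4 to 38 counts a library.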
